A study of Mus musculus with 12 samples.

Results

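The 10 genes described here serve the removal and storage of cholesterol in the liver: the sterol transporters Abca1, Abcg1, Abcg5 and Abcg8, the liver X receptors (LXR) Nr1h3 and Nr1h2, the cholesterol-esterifying enzymes Soat1, Soat2 and Lcat, and the cholesterol carrier Stard4. They were taken by gene symbol, and each matched 1 of the 54532 genes in the deposited table. The samples were bulk RNA libraries of mouse liver, 6 labelled Rspo2-AAV and 6 labelled Control with a Gfp-AAV vector. AAV is adeno-associated virus, a gene delivery vector, and Rspo2 encodes R-spondin 2, a secreted protein that strengthens Wnt signalling. All 12 samples carried the genotype Apoe knockout, so the label gives the controls, too, a knockout of apolipoprotein E, a ligand through which the liver takes up lipoprotein remnants. The age, sex, strain, diet, vector dose, vector promoter and time after injection were not given in the sources used here, nor whether each sample was a separate animal, so p-values measure only the spread between these samples, which may be technical. The title given by the submitters concerns hepatic steatosis and AMPK-ACC signalling.

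Cells dispose of surplus cholesterol by exporting it, by storing it as ester or by turning it into bile acid. The receptors LXR-alpha (Nr1h3) and LXR-beta (Nr1h2) are activated by oxysterols, bind DNA together with retinoid X receptors, and induce the transporters. ABCA1 loads cholesterol and phospholipid onto apolipoprotein A1 to form HDL, ABCG1 passes cholesterol to HDL particles, chiefly in macrophages, and ABCG5 and ABCG8 together form 1 transporter that secretes sterols into bile. Opposed to LXR stands SREBP2, a transcription factor that is released when membrane cholesterol is low and induces the genes of cholesterol synthesis.

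Depth ran from 14295644 to 22195576 reads per library, recovered from the deposited FPKM. FPKM is fragments per kilobase of gene length, scaled by a size for each library. That size was 1.14 times the recovered reads in Rspo2-AAV 1 and 0.863 times in Rspo2-AAV 2. In the other libraries it was 0.927 to 1.07 times, so the scaling did not follow the recovered total alone. Rspo2 was listed at 0 in each control library and ranged from 49.9 to 573 FPKM in the Rspo2-AAV libraries. The 8 hepatocyte markers were all expressed, with summed levels of 18999 to 42004 FPKM in Rspo2-AAV and 23040 to 46799 FPKM in Control libraries. Rspo2-AAV 2 stood apart with 10.5% mitochondrial reads, against 3.53% to 5.76% in the other Rspo2-AAV libraries and 4.25% to 5.89% in Control libraries. Pancreatic acinar genes took 5.95% of the reads of Rspo2-AAV 4, 0.533% in Rspo2-AAV 5, 0.0615% in Rspo2-AAV 6 and 0.00629% in Rspo2-AAV 7. In Rspo2-AAV 1 and 2 and in the Control libraries they took at most 0.0034%. Xist was at 28.0 FPKM in Rspo2-AAV 1, 5.57 FPKM in Rspo2-AAV 2 and 42.0 FPKM in Control 3, and under 1 FPKM in the other 9 libraries. Libraries numbered 1 to 3 and libraries numbered 4 to 7 differed in both groups in Scd1, itself an LXR target, so values within each set of numbers are given below. That boundary was drawn with these data known. In bulk tissue, fewer cells of a type and less RNA per cell cannot be told apart.

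Abcg5 and Abcg8 are neighbours on chromosome 17 that are read in opposite directions, and the windows around their start sites are shown because 1 start of each gene lies in a shared stretch of DNA. In the RefSeq table of GRCm38.p6 these starts lie 110 bases apart, and the windows of 300 bases around each start share 209 bases, printed from opposite strands. The Abcg5 window is chr17:84682962-84683261, minus strand, and the Abcg8 window is chr17:84682871-84683170, plus strand. Both are printed 5′ to 3′ on the strand of their gene, and capitals mark matches to TATAAA or AGATAA on either strand, which do not overlap.
Abcg5: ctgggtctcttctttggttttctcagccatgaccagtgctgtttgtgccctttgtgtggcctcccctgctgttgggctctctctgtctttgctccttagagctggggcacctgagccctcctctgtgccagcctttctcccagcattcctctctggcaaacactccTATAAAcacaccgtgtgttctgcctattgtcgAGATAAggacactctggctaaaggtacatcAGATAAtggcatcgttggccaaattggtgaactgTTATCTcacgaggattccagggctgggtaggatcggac
Abcg8: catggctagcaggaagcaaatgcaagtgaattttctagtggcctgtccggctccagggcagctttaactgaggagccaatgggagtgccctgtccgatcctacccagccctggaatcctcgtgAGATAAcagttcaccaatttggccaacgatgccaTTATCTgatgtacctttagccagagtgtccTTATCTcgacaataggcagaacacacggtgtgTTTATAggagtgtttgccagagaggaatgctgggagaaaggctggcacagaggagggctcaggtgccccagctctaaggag
Each window held 1 match to TATAAA and 3 to AGATAA, the letters bound by GATA factors, all within the shared bases. The table holds a second Abcg8 window, chr17:84676052-84676351, at the gene start given below, which does not overlap the first and held 0 matches to either. Of all 32851 windows in the table, 13.6% held TATAAA and 11.2% held AGATAA on either strand. The LXR direct repeat, AGGTCA followed by any 4 bases and AGGTCA again, found on either strand in 0.0152% of all windows, had no match in the 9 windows of the 7 genes that were searched, nor did the sterol regulatory letters TCACNCCAC, found in 1.24%. Stard4 was not searched, and Abcg1 and Soat2 had no window. No match says only that these letters are not in these windows.

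None of the 10 genes passed the test between Rspo2-AAV and Control livers at an adjusted p under 0.05. All 10 were tested by limma on log2(FPKM + 0.5), with Benjamini-Hochberg adjustment over 13447 genes that had a mean of at least 0.5 FPKM, of which 5.2% were called. At an unadjusted p under 0.05 there were 3 of the 10, Stard4, Abcg8 and Soat1, where 21.5% of all tested genes stood. With limma-voom on the recovered reads, 1 of the 10 was called, Stard4, where 4.97% of all tested genes were. The groups overlapped for each of the 10, and 3.24% of all tested genes had groups that did not overlap. The median log2 change of the 10 was -0.092, and that of all tested genes was 0.0025. Each of the 10 had 137 to 13175 reads per library, so none was near the limit of detection. Stard4 was the only one of the 10 with a change above 0.5 in size on the log2 scale.

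**Figure D1:**
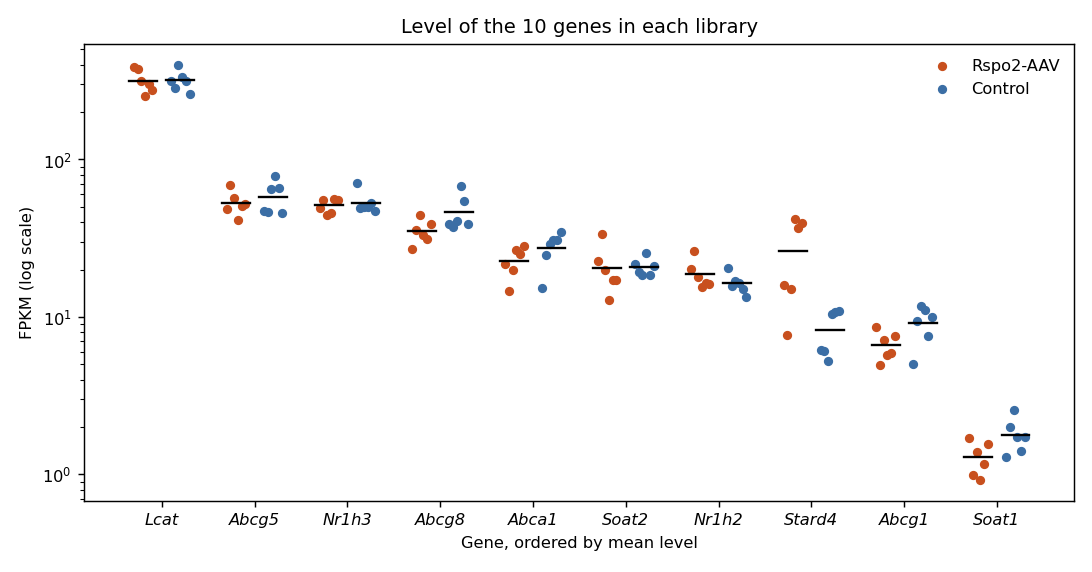
FPKM of the 10 genes in each library on a log scale, Rspo2-AAV to the left and Control to the right of each gene, with points for the 6 libraries of a group in number order and bars for the means. Lcat lies highest at a mean of 318 FPKM and Soat1 lowest at 1.53 FPKM, and the groups overlap for every gene.

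Levels set per gene length spanned a wide range, with Lcat at a mean of 318 FPKM over the 12 libraries, Abcg5 at 55.6, Nr1h3 at 52.2, Abcg8 at 40.6, Abca1 at 25.1, Soat2 at 20.7, Nr1h2 at 17.5, Stard4 at 17.2, Abcg1 at 7.89 and Soat1 at 1.53 FPKM. Lcat lay above Abcg5, Abcg8 above Abca1 and Abcg1 above Soat1 in 12 of 12 libraries. Abcg5 lay above Nr1h3 in 5 of 12 libraries, Abca1 above Soat2 in 8 of 12 and Nr1h2 above Stard4 in 9 of 12, so these neighbours did not keep 1 order.

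**Figure D2:**
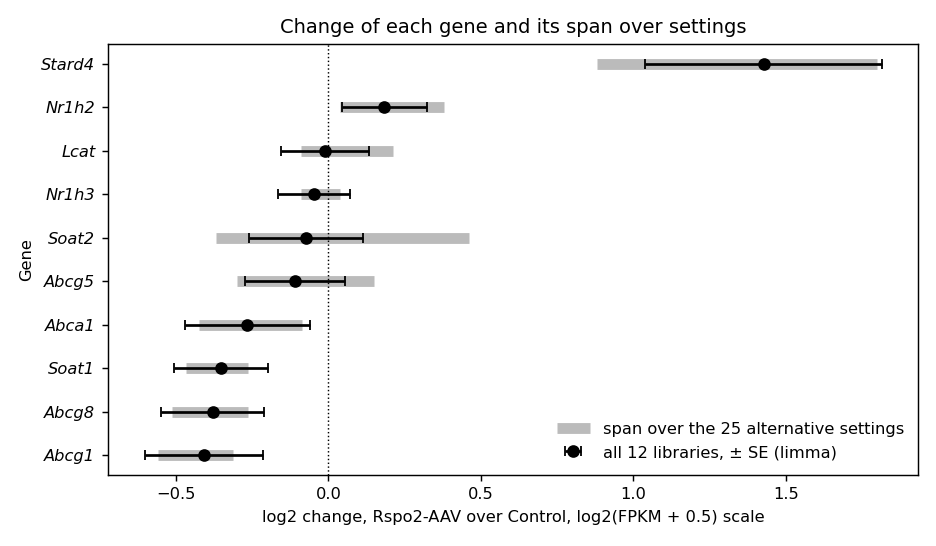
Log2 change of each gene, Rspo2-AAV over Control, on the log2(FPKM + 0.5) scale; points with bars are the limma estimate over all 12 libraries ± SE, and grey bands span the 25 alternative settings. Stard4 lies at 1.43 and the other 9 genes lie between -0.41 and 0.18.

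The biliary sterol transporter pair kept similar levels, with Abcg8 somewhat lower in most Rspo2-AAV livers. Abcg8 (GRCm38 chromosome 17, 84676302 to 84700333, plus strand) ranged from 27.0 through a median of 34.4 to 44.3 FPKM in Rspo2-AAV and from 37.4 through 39.8 to 67.7 FPKM in Control libraries. In 4 of 6 Rspo2-AAV libraries it lay below every control, and over all libraries the groups overlapped. Within numbers 1 to 3 the groups did not overlap, where 22.7% of all tested genes did not, and within numbers 4 to 7 they overlapped. The means were 35.0 ± 6.12 FPKM in Rspo2-AAV and 46.3 ± 12.2 FPKM in Control livers (SD, n = 6 each), a log2 change of -0.38 ± 0.17 (SE) that limma did not call (adjusted p = 0.212). Abcg5 (chromosome 17, 84658234 to 84683011, minus strand) ranged from 41.3 through 51.7 to 69.2 FPKM in Rspo2-AAV and from 45.7 through 56.0 to 78.2 FPKM in Control libraries. Its means of 53.2 ± 9.41 FPKM and 58.0 ± 13.6 FPKM (SD, n = 6 each, Rspo2-AAV and Control) gave a log2 change of -0.11 ± 0.16 (limma adjusted p = 0.753). In the annotation 82 exon bases of Abcg5 and Abcg8 overlap on opposite strands, 3.02% of the exon bases of Abcg5 and 2.19% of those of Abcg8. Whether strand was used in counting is not given in the sources used here, so reads of that stretch cannot be assigned.

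The ratio within a library is free of scaling between libraries. Abcg5 over Abcg8 was 1.79, 1.93, 1.29, 1.25, 1.64 and 1.35 in Rspo2-AAV 1, 2, 4, 5, 6 and 7, and 1.21, 1.24, 1.60, 1.15, 1.21 and 1.18 in Control 1 to 6. All 6 Rspo2-AAV libraries lay above the control median and 3 lay above every control, of which Control 3 was the highest. Of these 3 Rspo2-AAV libraries, numbers 1 and 2 had Xist above 1 FPKM, as Control 3 had, and number 6 had not. The mean ratio was 1.54 ± 0.286 in Rspo2-AAV and 1.27 ± 0.166 in Control livers (SD, n = 6 each), a difference of 0.27 in mean log2 ratio that did not pass (exact two-sided permutation p = 0.0628, adjusted p = 0.127 over 3 ratios). It passed among the 9 libraries with Xist under 1 FPKM (0.19, exact permutation, adjusted p = 0.0238) and without Rspo2-AAV 4 and 5 (0.40, exact permutation, adjusted p = 0.0429). Within numbers 4 to 7 it was 0.22 and did not pass (exact permutation, adjusted p = 0.257). Rspo2-AAV 4 to 7 and Control 4 to 6 allow too few splits for this test to pass easily. Their ratios were 1.25 to 1.64 in Rspo2-AAV and 1.15 to 1.21 in Control libraries.

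**Figure D3:**
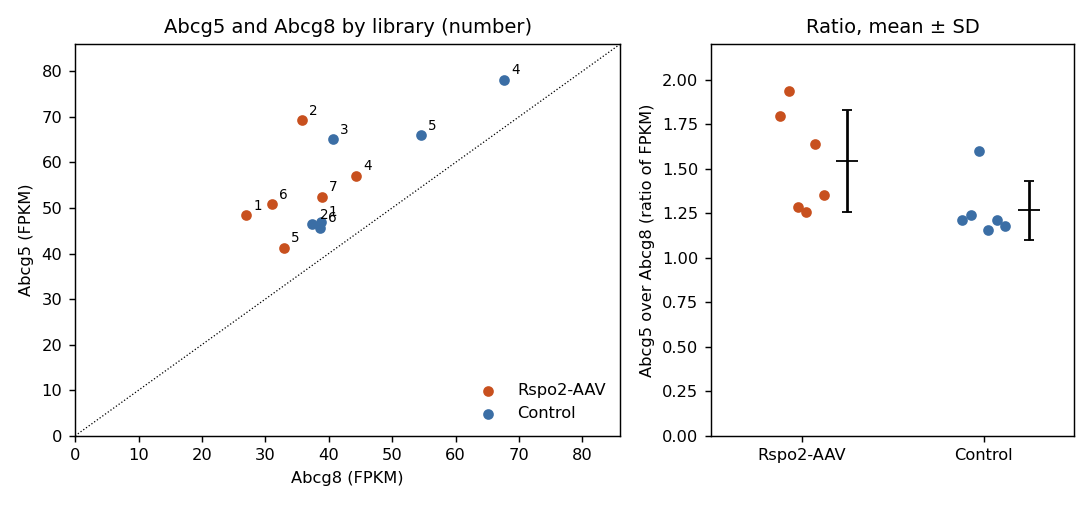
Left, FPKM of Abcg5 against Abcg8 in each library with its number, and a dotted line of equal levels; right, the ratio Abcg5 over Abcg8 by group with mean ± SD (n = 6 each). Every library lies above the line of equal levels, and the mean ratio is 1.54 in Rspo2-AAV and 1.27 in Control libraries, with overlap.

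Abca1, Abcg1 and Soat1, which encodes the cholesterol-esterifying enzyme of macrophages and many other cells, all had negative log2 changes and none was called. Abca1 (chromosome 4, 53030787 to 53159895, minus strand) ranged from 14.6 through 23.4 to 28.2 FPKM in Rspo2-AAV and from 15.2 through 30.0 to 34.6 FPKM in Control libraries. Abcg1 (chromosome 17, 31057698 to 31115777, plus strand, as in the deposited table) ranged from 4.95 through 6.49 to 8.60 FPKM in Rspo2-AAV and from 5.01 through 9.73 to 11.8 FPKM in Control libraries. Soat1 (chromosome 1, 156424525 to 156474331, minus strand) ranged from 0.920 through 1.27 to 1.70 FPKM in Rspo2-AAV and from 1.28 through 1.73 to 2.54 FPKM in Control libraries. For each of these 3 genes 0 of 6 Rspo2-AAV libraries lay above the control median, while Control 1 lay lowest among the controls and inside the Rspo2-AAV range. The log2 changes were -0.27 ± 0.20 for Abca1, -0.41 ± 0.19 for Abcg1 and -0.35 ± 0.15 for Soat1 (SE), with limma adjusted p of 0.495, 0.243 and 0.210. Without Control 1 they were -0.42, -0.56 and -0.42, with limma adjusted p of 0.136, 0.0504 and 0.121. Abca1 was at -0.15 without Rspo2-AAV 2 and at -0.087 in the 9 libraries with Xist under 1 FPKM (limma adjusted p = 0.695 and 0.847), and over the single omissions Abcg1 ranged from -0.56 to -0.33 and Soat1 from -0.42 to -0.26. Within numbers 4 to 7, Abca1 did not overlap between the groups, as 28.9% of all tested genes did not, and had -0.37 ± 0.13 (limma adjusted p = 0.0938). With library weights Abcg1 was called lower (-0.48, limma adjusted p = 0.0267), in a fit that called 22.4% of all tested genes.

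Macrophage markers held calls in 1 direction. Of 15 tested genes of the Kupffer cell and macrophage list, 0 were higher and 5 lower by limma and by limma-voom, with a median log2 change of -0.65; of all tested genes 2.55% were higher and 2.65% lower. Without any 1 library 1 to 7 of the 15 were lower, and without Rspo2-AAV 4 and 5 it was 1. Within numbers 4 to 7 it was 7, where 6.92% of all tested genes were lower. Within numbers 1 to 3 it was 0, in a fit that called 0 of 13447 genes, and the list median there was -0.51. The list sum was 593 to 1112 FPKM in Rspo2-AAV and 832 to 1765 FPKM in Control libraries, and none of its 16 genes was listed at 0 throughout. Marco, a scavenger receptor of macrophages, fell to 7.57 ± 4.31 FPKM in Rspo2-AAV livers, against 38.2 ± 22.1 FPKM in Control livers (SD, n = 6 each; limma adjusted p = 0.00864). Clec4f, a Kupffer cell lectin, fell to 41.5 ± 22.3 FPKM in Rspo2-AAV livers, against 103 ± 29.8 FPKM in Control livers (limma adjusted p = 0.0177), a call lost without Rspo2-AAV 6 (log2 change -1.32, limma adjusted p = 0.0501). The general macrophage marker Adgre1 was at 7.30 ± 2.52 FPKM in Rspo2-AAV and 15.2 ± 5.93 FPKM in Control livers and was not called (limma adjusted p = 0.0519). The ranks of the libraries differed between markers. Abca1 and Abcg1 were lowest in Rspo2-AAV 2, which had the highest Clec4f (78.2 FPKM) and the lowest Adgre1 (4.62 FPKM) of its group. Among Rspo2-AAV libraries, Abca1 was highest in Rspo2-AAV 7, which had the lowest Clec4f (23.7 FPKM). Abcg1 (8.60 FPKM) and Soat1 (1.70 FPKM) were highest of their group in Rspo2-AAV 1. That library also had the highest Adgre1 (11.7 FPKM) and list sum (1112 FPKM) of its group. Control 1, lowest of the controls in Abca1, Abcg1 and Soat1, had a list sum of 1249 FPKM, near the control median of 1238 FPKM. Its Csf1r, another gene of the list, was the lowest of the controls (14.1 FPKM). Its Adgre1 was at 10.5 FPKM, in a control range of 8.25 to 23.0 FPKM. The part of macrophage RNA in the values of Abca1, Abcg1 and Soat1 was not tested.

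**Figure D4:**
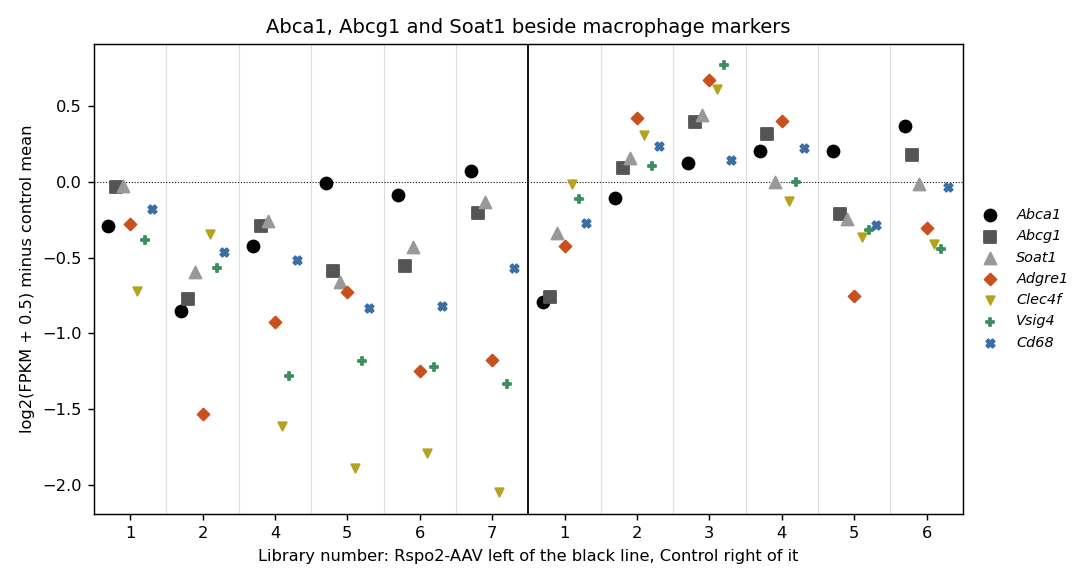
Level of Abca1, Abcg1 and Soat1 and of 4 macrophage markers in each library, as log2(FPKM + 0.5) minus the control mean of that gene; each column is 1 library. Clec4f lies below its control mean in every Rspo2-AAV library, and Abca1 and Abcg1 lie lowest in Rspo2-AAV 2 and Control 1 within their groups.

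Transcripts of the liver X receptors did not differ beyond the spread between libraries. Nr1h3 (chromosome 2, 91184061 to 91202834, minus strand) ranged from 44.6 through 52.3 to 56.4 FPKM in Rspo2-AAV and from 47.1 through 49.8 to 70.5 FPKM in Control libraries. Its means of 51.2 ± 5.35 FPKM in Rspo2-AAV and 53.2 ± 8.68 FPKM in Control livers (SD, n = 6 each) gave a log2 change of -0.047 ± 0.12 (limma adjusted p = 0.862). Nr1h2 (chromosome 7, 44549616 to 44553951, minus strand) ranged from 15.4 through 17.1 to 26.3 FPKM in Rspo2-AAV and from 13.3 through 16.1 to 20.5 FPKM in Control libraries, with a log2 change of 0.18 ± 0.14 (limma adjusted p = 0.489). Its highest value was that of Rspo2-AAV 2. Nr1h3 lay above Nr1h2 in each library, by a mean ratio of 2.81 ± 0.552 in Rspo2-AAV and 3.27 ± 0.266 in Control livers (SD, n = 6 each; exact two-sided permutation p = 0.0844, adjusted p = 0.127 over 3 ratios).

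Of 12 partners and cofactors of the receptors, 0 were higher and 0 lower by limma and by limma-voom, with 1 at an unadjusted p under 0.05 and a median log2 change of -0.071. Over all tested genes, limma called 5.2%, and 21.5% had an unadjusted p under 0.05. At that share of calls, 0 of 12 does not show an absence of change. Rxra, the main retinoid X receptor of hepatocytes, was at 105 ± 7.90 FPKM in Rspo2-AAV and 114 ± 13.4 FPKM in Control livers (SD, n = 6 each; limma adjusted p = 0.584). Nr0b2, a corepressor that acts on LXR among other receptors, was at 40.03 ± 28.4 FPKM in Rspo2-AAV and 36.2 ± 10.6 FPKM in Control livers (limma adjusted p = 0.953).

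LXR target genes showed no call in the main test. Of 22 tested targets, 5 of which are among the 10 genes above, 0 were higher and 0 lower by limma and by limma-voom, with 5 at an unadjusted p under 0.05 and a median log2 change of -0.050. By limma 2.55% of all tested genes were higher, 2.65% lower and 21.5% at an unadjusted p under 0.05. At these shares, 0 of 22 does not show an absence of change. With library weights 1 target was higher and 4 lower, where 22.4% of all tested genes were called. In the 9 libraries with Xist under 1 FPKM 1 was higher and 1 lower, where 12.8% were called. Srebf1, the lipogenic transcription factor induced by LXR, ranged from 32.2 to 94.1 FPKM in Rspo2-AAV and from 21.2 to 118 FPKM in Control libraries, with a log2 change of -0.072 ± 0.41 (limma adjusted p = 0.943). Scd1, the stearoyl-CoA desaturase, was at 340 to 541 FPKM in Rspo2-AAV 1 and 2 and at 331 to 479 FPKM in Control 1 to 3. It was at 2457 to 3430 FPKM in Rspo2-AAV 4 to 7 and at 2829 to 3662 FPKM in Control 4 to 6. Apoc1, an apolipoprotein, was at 2290 ± 1220.3 FPKM in Rspo2-AAV and 2227 ± 514 FPKM in Control livers (SD, n = 6 each; limma adjusted p = 0.938). Apoe reads, in mice labelled knockout, were at 79.6 ± 21.6 FPKM in Rspo2-AAV and 75.6 ± 40.5 FPKM in Control livers (limma adjusted p = 0.804). With the deleted part of Apoe not given here, they do not check the genotype. Within numbers 4 to 7, 0 of the 22 targets were higher and 1 lower, where 6.34% of all tested genes were higher and 6.92% lower.

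Enzymes that make or clear oxysterols, the natural ligands of LXR, held 1 call. Of 7 tested, 1 was higher and 0 lower by limma, where 5.2% of all tested genes were called. The count was 3 higher and 2 lower within numbers 4 to 7, where 13.3% of all tested genes were called. With TPM scaling it was 0 higher and 1 lower. Within numbers 1 to 3 it was 0 in both directions, in a fit that called 0 of 13447 genes, and the list median was 0.43. Cyp27a1, the sterol 27-hydroxylase, rose to 353 ± 28.3 FPKM in Rspo2-AAV livers, against 238 ± 39.8 FPKM in Control livers (SD, n = 6 each), a log2 change of 0.58 ± 0.13 (limma adjusted p = 0.0255). The groups did not overlap. Leaving out a single library lost this call in 6 of 12 cases, namely Rspo2-AAV 4, 6 and 7 and Control 2, 4 and 6, with log2 changes of 0.51 to 0.63 over the 12. Cyp7b1, which clears oxysterols and was chosen after its values were seen, had the largest log2 change of the list, -1.94 ± 0.55, and was not called (limma adjusted p = 0.0618). It was at 34.1 ± 19.98 FPKM in Rspo2-AAV and 144 ± 102 FPKM in Control livers (SD, n = 6 each), and the groups overlapped.

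Esterifying enzymes of the hepatocyte and of plasma showed no call. Lcat (chromosome 8, 105939551 to 105943382, minus strand), which encodes the secreted enzyme that esterifies cholesterol on HDL, ranged from 252 through 307 to 389 FPKM in Rspo2-AAV and from 262 through 317 to 399.8 FPKM in Control libraries. Its means of 317 ± 55.0 FPKM in Rspo2-AAV and 319 ± 47.3 FPKM in Control livers (SD, n = 6 each) were nearly equal, with a log2 change of -0.011 ± 0.14 (limma adjusted p = 0.975). Soat2 (chromosome 15, 102150526 to 102163469, plus strand), which encodes the acyltransferase of hepatocytes and enterocytes, ranged from 12.7 through 18.6 to 33.5 FPKM in Rspo2-AAV and from 18.5 through 20.3 to 25.6 FPKM in Control libraries. The Rspo2-AAV values reached above the controls in 1 library, Rspo2-AAV 2, and below them in 3. The log2 change over all libraries was -0.074 ± 0.19 (limma adjusted p = 0.865).

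The change of Soat2 had opposite signs in the number sets. Among numbers 1 to 3 its log2 change was 0.46 ± 0.24, and among numbers 4 to 7 it was -0.37 ± 0.17, and the groups did not overlap within numbers 1 to 3, where 22.7% of all tested genes did not. The difference between these changes was -0.83 ± 0.29 and did not pass (limma adjusted p = 0.319), in a comparison in which 0.245% of 13447 genes were called. Without Rspo2-AAV 2 the difference was -0.55 (limma adjusted p = 0.559). Soat2 over Soat1 had a mean of 16.9 ± 8.50 in Rspo2-AAV and 12.4 ± 3.50 in Control livers (SD, n = 6 each; exact two-sided permutation p = 0.353, adjusted p = 0.353 over 3 ratios), and Rspo2-AAV 2 alone was at 34.1.

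Of 10 tested cholesteryl ester hydrolases, which release cholesterol from its esters, 0 were higher and 1 lower. Of all tested genes 2.55% were higher and 2.65% lower. The 10 include Cel, also on the pancreatic acinar list, which was at 0 FPKM in each Control library and at 2992 FPKM in Rspo2-AAV 4. Ces1e, a carboxylesterase with near-identical neighbours that may share reads, fell to 17.8 ± 6.72 FPKM in Rspo2-AAV livers, against 47.7 ± 20.9 FPKM in Control livers (SD, n = 6 each; limma adjusted p = 0.0301). The call was lost without any one of Rspo2-AAV 5, 6 and 7 and Control 4, 5 and 6. Within numbers 4 to 7, 0 of these 10 genes were higher and 5 lower, where 6.34% of all tested genes were higher and 6.92% lower. Of 12 tested genes of HDL formation and uptake, 0 were higher and 1 lower. The lower one was Apoa4, an apolipoprotein, at 76.3 ± 37.6 FPKM in Rspo2-AAV and 201.5 ± 43.5 FPKM in Control livers (SD, n = 6 each; limma adjusted p = 0.00749). Of 10 other tested ABCA and ABCG transporters, 0 were higher and 1 lower: Abca8a fell to a range of 3.16 to 6.27 FPKM in Rspo2-AAV livers, against 4.83 to 16.4 FPKM in Control livers (log2 change -1.07 ± 0.26, limma adjusted p = 0.0342). Its call was lost without any one of Rspo2-AAV 5, 6 and 7 and Control 2, 4, 5 and 6.

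Stard4, which encodes a soluble protein that carries cholesterol between membranes and is a known target of SREBP2, was the gene with the largest change. Its values were 15.98, 7.70, 15.1, 41.9, 36.7 and 39.2 FPKM in Rspo2-AAV 1, 2, 4, 5, 6 and 7, and 6.14, 6.04, 5.28, 10.4, 10.7 and 10.95 FPKM in Control 1 to 6. In 5 of 6 Rspo2-AAV libraries it lay above every control, and Rspo2-AAV 2 lay below Control 4, 5 and 6. The means were 26.1 ± 14.8 FPKM in Rspo2-AAV and 8.25 ± 2.68 FPKM in Control livers (SD, n = 6 each), a log2 change of 1.43 ± 0.39 that limma did not call (adjusted p = 0.0515).

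The side of the threshold on which Stard4 fell depended on the setting. It was called with limma-voom (1.49, adjusted p = 0.0425), with a filter at a mean of 1 FPKM (limma adjusted p = 0.0494), without Rspo2-AAV 2 (1.72, limma adjusted p = 0.00813), with the number set as a covariate (1.24, limma adjusted p = 0.0169), with library weights (1.72, limma adjusted p = 0.00215) and in the 9 libraries with Xist under 1 FPKM (1.80, limma adjusted p = 0.00624). These settings called 4.97%, 5.63%, 6.72%, 6.48%, 22.4% and 12.8% of all tested genes, in the order given. On all 12 libraries it was not called with no filter (limma adjusted p = 0.115), with TPM scaling (0.0995) or with a pseudocount of 0.1 (0.0508) or 1 (0.0531). It was not called without any one of the other 11 libraries (1.25 to 1.53), nor without Rspo2-AAV 4 and 5 (1.33, limma adjusted p = 0.145). Within numbers 4 to 7 it was called at 1.49 ± 0.33 (limma adjusted p = 0.028), where 13.3% of tested genes were called. Within numbers 1 to 3, where 0 of 13447 genes were called, it had 0.88 ± 0.33 (limma adjusted p = 0.695). The groups did not overlap within either set of numbers, as held for 7.05% of all tested genes and for 1 of the 10. The change between the number sets had a difference of 0.61 ± 0.51 (limma adjusted p = 0.700).

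SREBP2 targets held calls in 1 direction. Of 21 tested genes of this list, 14 were higher and 0 lower by limma, where 2.55% of all tested genes were higher. The list median log2 change was 2.52, and 9 to 19 were higher without any 1 library. Within numbers 4 to 7 there were 19 higher by limma, where 6.34% of all tested genes were higher. Without Rspo2-AAV 4 and 5 there were 5. Within numbers 1 to 3 there were 0, but that fit called 0 of 13447 genes, so this count cannot show an absence. The list median there was 0.70. The list was chosen with earlier results of these data known, so its direction is not independent evidence. Srebf2, which encodes SREBP2, rose to 17.9 ± 7.44 FPKM in Rspo2-AAV livers, against 6.16 ± 0.892 FPKM in Control livers (SD, n = 6 each; limma adjusted p = 0.00797). Sqle, the squalene epoxidase, rose by 4.27 ± 0.69 and Msmo1, a sterol oxidase, by 3.52 ± 0.61 on the log2 scale. Hmgcs1, which condenses acetyl units at the start of the pathway, and Insig1, which retains SREBP2 in the endoplasmic reticulum, were chosen after their values were seen, with log2 changes of 3.29 ± 0.73 and 2.32 ± 0.65 (limma adjusted p = 0.0238 and 0.0585). Without Rspo2-AAV 6, Rspo2-AAV 7, Control 2 or Control 6, Hmgcs1 was not called.

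**Figure D5:**
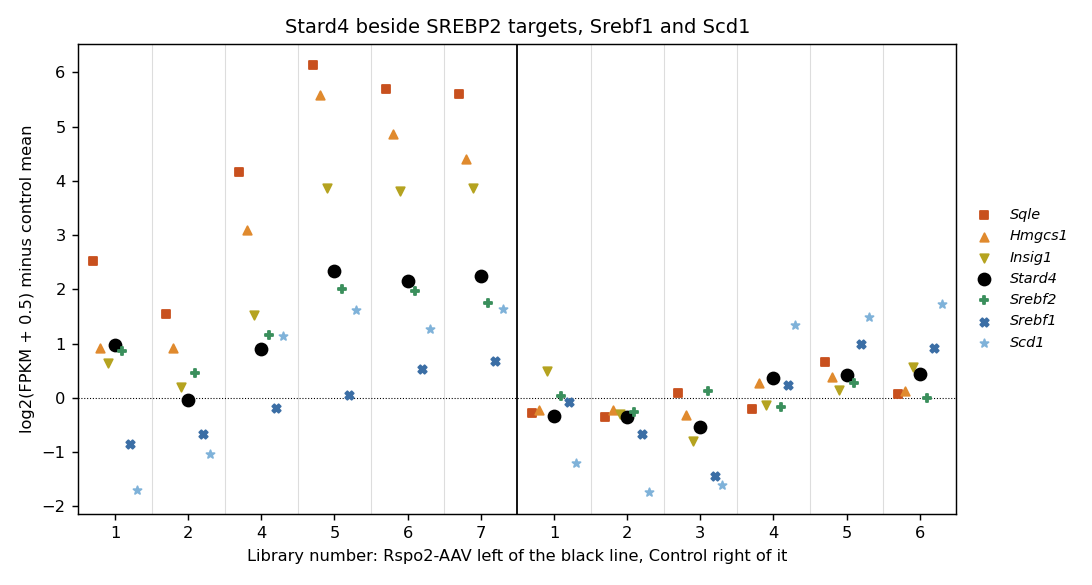
Level of Stard4 (black circles), Sqle, Hmgcs1, Insig1, Srebf2, Srebf1 and Scd1 in each library, as log2(FPKM + 0.5) minus the control mean of that gene; each column is 1 library. Stard4 lies highest in Rspo2-AAV 5, 6 and 7, where Sqle, Hmgcs1 and Insig1 also lie highest.

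Among the tested protein-coding genes whose pattern over the 12 libraries was most like that of Stard4 were Pgs1, an enzyme of cardiolipin synthesis, and Mblac2, which encodes a metallo-beta-lactamase domain protein. Their Pearson correlations with Stard4 on log2(FPKM + 0.5) were 0.96 and 0.95. These correlations describe libraries that share the group and number differences above. Pgs1 was at 5.53 ± 1.48 FPKM in Rspo2-AAV and 3.50 ± 0.431 FPKM in Control livers (SD, n = 6 each; log2 change 0.56 ± 0.16, limma adjusted p = 0.0575). Mblac2 was at 4.00 ± 2.26 FPKM in Rspo2-AAV and 1.43 ± 0.463 FPKM in Control livers (SD, n = 6 each; log2 change 1.08 ± 0.32, limma adjusted p = 0.0724). Like Stard4, neither was called over all libraries.

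Other carriers of intracellular sterol moved in both directions. Of 18 tested, 2 were higher and 1 lower, where 2.55% of all tested genes were higher and 2.65% lower. Tmem97, an endoplasmic reticulum protein that binds the cholesterol transporter NPC1, rose to 98.7 ± 30.9 FPKM in Rspo2-AAV livers, against 37.7 ± 8.54 FPKM in Control livers (SD, n = 6 each; log2 change 1.33 ± 0.24, limma adjusted p = 0.00749). Gramd1a, which moves cholesterol from the plasma membrane to the endoplasmic reticulum, rose to 8.86 ± 1.73 FPKM in Rspo2-AAV livers, against 4.93 ± 0.607 FPKM in Control livers (0.77 ± 0.13, limma adjusted p = 0.00646). The groups did not overlap for either gene. Stard5, a relative of Stard4 in the same lipid transfer domain family, fell to 20.0 ± 4.06 FPKM in Rspo2-AAV livers, against 28.2 ± 1.73 FPKM in Control livers (-0.51 ± 0.13, limma adjusted p = 0.038). Leaving out a single library lost this call in 10 of 12 cases, the exceptions being Rspo2-AAV 2 and Control 3.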

How the data were processed

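Bulk liver RNA of 12 samples was measured. Per the labels' protocols, both directional and non-directional libraries are described without saying which was made, so reads of overlapping genes on opposite strands cannot be told apart. The authors deposited FPKM per gene, 1 column per sample, and columns were assigned by the letter and number in their names. The submitters' processing notes list HISAT2 (2.0.5), featureCounts (1.5.0-p3), DESeq2 (1.20.0) and GRCm38 (mm10), with no role or order.

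FPKM times the deposited gene length gave whole reads for 100% of positive values, within 0.01 reads. These reads carry no molecular identifiers, so their number bounds counting error only. Differences were tested with limma (3.58.1, R 4.3.3; lmFit, eBayes with trend) on log2(FPKM + 0.5), a scale that understates changes of low genes. Genes averaging 0.5 FPKM or more entered the fit, 13447 in all, with Benjamini-Hochberg adjustment over them and a threshold of 0.05. The fit was tested on simulated data. Ratios within a library were compared by exact two-sided permutation over 924 splits. No count model was run on FPKM, and limma-voom on recovered reads served as an alternative.

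Alternatives changed the pseudocount, filter, scaling, model, library weights, left-out libraries, replicate block and number sets. Named were the 10 genes, up to 4 called genes by smallest p from each pathway list (or the 2 most abundant where none was called), Rspo2, Apoe, Srebf1, Srebf2, Scd1 and the 3 protein-coding genes most like Stard4; some genes that this rule names are not reported here, and marker genes and others were chosen after their values were seen. The members and lists were chosen with earlier results of these data known.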

Additional observations from a re-analysis of the deposited data

Results flagged for a closer look

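Values of the 10 genes and of the 3 ratios were searched for a library far from the other 5 of its group, in 26 groups of values, of which chance gives about 1 in 20, and 3 stood out. The ratio Soat2 over Soat1 was 34.1 in Rspo2-AAV 2, against 11.1 to 14.8 in the other Rspo2-AAV libraries, and this library also held the most mitochondrial reads. Nr1h3 was at 70.5 FPKM in Control 1, against 47.1 to 52.9 FPKM in the other controls. The ratio Abcg5 over Abcg8 was 1.60 in Control 3, against 1.15 to 1.24 in the other controls. Control 3 was the control with Xist at 42.0 FPKM. Their part in these values was not tested.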

How the results depend on the processing

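Over 25 alternatives to the test on all 12 libraries, Abca1, Abcg1, Abcg8 and Soat1 kept negative and Nr1h2 and Stard4 positive log2 changes. All genes called numbered 699, and 411 with no filter, 380 with TPM scaling, 3007 with library weights (whose estimate stopped short of its tolerance), 298 with the replicate block, 1784 within numbers 4 to 7, 0 by limma within numbers 1 to 3 (955 at an unadjusted p under 0.05), 1715 in the 9 libraries with Xist under 1 FPKM, 237 without Rspo2-AAV 4 and 5, and 332 to 913 without any 1 library. Of the 10 genes, 1 was called, Stard4, with the filter at 1 FPKM, with limma-voom, with the number term, within numbers 4 to 7 and in the 9 libraries, 2 with library weights (Stard4 and Abcg1) and 0 to 1 without any 1 library. The sample number is not said to pair animals: deviations of equal numbers correlated at -0.25 to 0.16 over 5 pairs, 1 of 5 Rspo2-AAV libraries correlated best with its own number, and with the block Stard4 had 1.16 (limma adjusted p = 0.0741) and the log2 ratio Abcg5 over Abcg8 differed by 0.37 (exact permutation p = 0.0625, the smallest that 5 pairs allow). That ratio passed in the 9 libraries (0.19) and without Rspo2-AAV 4 and 5 (0.40). The difference between number sets, 33 calls, gave 3 with a pseudocount of 0.1, 81 with no filter, 13 with the filter at 1 FPKM, 1 with TPM scaling, 5 with limma-voom, 62 with library weights and 0 to 140 without any 1 library. Signs turned as follows, in log2 and with no call: within numbers 1 to 3 for Abcg5 (0.15), Soat2 (0.46), Lcat (0.21), Apoc1 (0.33) and Nr0b2 (0.51); within numbers 4 to 7 for Nr1h3 (0.012), Scd1 (-0.10) and Soat2 over Soat1 (-0.087); without Rspo2-AAV 4 and 5 for Nr1h3 (0.038), Soat2 (0.073), Lcat (0.068), Apoc1 (0.049) and Nr0b2 (0.37). They also turned with the number term for Lcat (0.034) and Nr0b2 (0.048), with the block for Lcat (0.095) and Scd1 (-0.061), with library weights for Nr1h3 (0.035), and in the 9 libraries for Apoe (-0.052) and Soat2 over Soat1 (-0.060). Without any 1 library the ranges were -0.079 to 0.036 for Nr1h3, -0.23 to 0.047 for Soat2, -0.073 to 0.057 for Lcat, -0.29 to 0.065 for Apoc1, -0.34 to 0.13 for Nr0b2 and -0.36 to 0.13 for Srebf1. Without Rspo2-AAV 4 and 5, Cyp27a1, Abca8a, Tmem97, Stard5, Apoa4, Ces1e, Clec4f, Lrat, Rgs5 and Hmgcs1 kept their direction and were no longer called. The cause was not tested.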

Other observations

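Outside the macrophage list, calls among cell type markers lay mostly in the stellate cell list, and none of the 10 genes is among these markers. Of 8 tested stellate cell markers, 0 were higher and 3 lower by limma, Dcn, Lrat and Rgs5, where 2.65% of all tested genes were lower. The list median was -0.78 on the log2 scale, with 2 to 5 lower without any 1 library and 1 lower without Rspo2-AAV 4 and 5. The list sum was 21.8 to 41.1 FPKM in Rspo2-AAV and 50.6 to 70.1 FPKM in Control libraries. Dcn, which encodes the matrix proteoglycan decorin, fell to 14.97 ± 3.52 FPKM in Rspo2-AAV livers, against 30.0 ± 3.24 FPKM in Control livers (SD, n = 6 each; limma adjusted p = 0.00304). Lrat, which stores retinol as ester in stellate cells, fell to 1.81 ± 0.515 FPKM in Rspo2-AAV livers, against 4.64 ± 1.92 FPKM in Control livers (limma adjusted p = 0.0151). Leaving out Rspo2-AAV 4, 5 or 6 or Control 2 or 4 lost the call of Rgs5 (-0.93 to -0.70 over all 12 omissions).

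Of 8 endothelial, 5 cholangiocyte, 8 hepatocyte, 11 pancreatic acinar, 3 lymphocyte and 2 adipocyte markers tested, 0 were called by limma or limma-voom, with 1, 2, 4, 9, 2 and 1 at an unadjusted p under 0.05. Over all tested genes, limma called 5.2%, and 21.5% had an unadjusted p under 0.05. In lists this short, 0 calls does not show an absence of change. The pancreatic acinar list sum ranged from 3.99 to 45494 FPKM in Rspo2-AAV and from 4.34 to 15.99 FPKM in Control libraries. Of 2 tested enterocyte markers, 1 was lower, Apoa4, which the liver also expresses.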
